A study of Homo sapiens with 8 samples.

Results

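Desmosome genes encode the cell-to-cell junctions that tie the keratin filaments of neighbouring epithelial cells together. The 10 genes described here (DSC2, DSC3, DSG2, DSG3, DSP, JUP, PKP1, PKP2, PKP3 and PERP) were chosen by name from the 56632 genes of the count table. All 10 were matched to the table, and all 10 passed the filter on low counts with 18431 genes in all. RNA-seq of poly A+ RNA was done on 8 libraries, 2 biological replicates from each of 4 isogenic human mammary epithelial cell lines grown as acini in Matrigel. M1 is MCF10A, an immortalized line that forms no tumours. M2 is MCF10AT1k.cl2, made from MCF10A by transfection of activated T24-HRAS and selection through a xenograft. M3 (MCF10Ca1h) and M4 (MCF10CA1a.cl1) were both established from carcinomas that arose in M2 xenografts, so M2, M3 and M4 all descend from the HRAS-transfected cells. Each stage is a single line, and differences between lines cannot be told apart from differences between stages. All cultures were harvested after 8 days in medium with 2% horse serum. M1 and M2 had 10 ng/ml EGF, a growth factor of epithelial cells, and M3 and M4 had none, so any difference of M3 or M4 from M1 or M2 cannot be told apart from the presence of EGF.

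In a desmosome, desmocollins (DSC) and desmogleins (DSG), which are calcium-dependent cadherins, cross the membrane and bind their counterparts on the next cell. Inside the cell their tails bind plakoglobin (JUP) and the plakophilins (PKP), armadillo-repeat proteins, and these bind desmoplakin (DSP), the large plakin that holds the keratins. PERP is a small tetraspan membrane protein of desmosomes and a target of p53 and p63. Simple epithelia mainly use DSG2, DSC2 and PKP2, while basal and stratified epithelia add DSG3, DSC3 and PKP1. In the breast, myoepithelial (basal) cells express the basal isoforms.

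Library totals ran from 69669945 to 107350288 counts. Levels are given as CPM, counts scaled to a fixed library size after TMM, a correction for library composition. Each of the 8 epithelial markers examined was above 1 CPM in at least 1 library, with a summed level from 7111 to 12350 CPM. Of 3 leukocyte markers, PTPRC and CD3E stayed below 0.2 CPM, while CD68 was 51.4 and 39.0 CPM in M4 against 9.55 and 4.03 CPM in M1. The 5 stromal markers summed to 60.2 and 8.62 CPM in M1, 74.4 and 72.4 for M2, 10.1 and 15.8 for M3, and 7.59 and 6.43 for M4, nearly all of it DCN and COL1A1, with COL3A1 below 0.2 CPM throughout. The part of these genes in the results was not tested. In bulk RNA, fewer cells of a type and less RNA per cell cannot be told apart for any gene below. The M1 replicates stood apart from each other: DSP was 1.79 times, PERP 1.59 times and PKP1 2.45 times as high in replicate 1 as in replicate 2. In M3 the largest gap among the 10 genes was PKP2, 2.15-fold. The M2 replicates were closest, and their largest gap was also PKP1. Chi-square per degree of freedom, the spread between replicates relative to counting error over all well-counted genes, was 6.65 in M2. It was 233 in M1, 293 in M3 and 111 in M4. The lines share an estimate of the spread in the test, so the M2 pair enters every comparison. The columns of a gene expression listing released with the study were matched to the libraries by correlation over 268 genes. Its M2 replicate 1 column was most like the library labelled M1 replicate 2. Its M1 replicate 2 column was most like the library labelled M2 replicate 1. The other 6 columns matched their own labels. The sample labels are used here, and for the genes named below, edgeR calls that end when those 2 libraries are exchanged are given in the same paragraph. With that exchange, 0 genes of all those tested were called in M2 against M1 (edgeR). Over all genes the called share fell from 13.5% to 1.19% in M3 against M1 and from 20.7% to 8.46% in M4 against M1. It fell from 4.15% to 1.16% in M3 against M2, from 13.9% to 10.2% in M4 against M2 and from 10.3% to 4.5% in M4 against M3. Calls over all genes in comparisons with M2 also fell steeply without either M2 library. A call lost in these ways is therefore not particular to the genes named below.

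Per length of merged exons the 10 genes covered a wide range of levels, and PERP was highest in every library. In M1 the mean levels were 234 ± 75.3 CPM per kb for PERP, 111 ± 23.5 for JUP, 109 ± 43.8 for DSP, 49.2 ± 11.5 for DSG3 and 40.4 ± 4.73 for PKP3 (SD, n = 2). DSC3 followed at 20.5 ± 1.14, DSG2 at 17.1 ± 3.20, DSC2 at 9.86 ± 3.28, PKP2 at 5.48 ± 0.530 and PKP1 at 0.173 ± 0.103 CPM per kb (SD, n = 2). JUP and DSP could not be ordered in M1, because their replicate ranges overlapped. In M4 the order of the first was PERP at 183 ± 26.3, JUP at 137 ± 21.8, DSP at 58.7 ± 9.08, DSG3 at 53.7 ± 6.94, PKP3 at 51.1 ± 4.70 and DSG2 at 30.8 ± 4.54 CPM per kb (SD, n = 2). In M4 DSP, DSG3 and PKP3 lay within each other's spread, and JUP was above DSP in both libraries. DSG2 stood below DSC3 in both M1 libraries and above it in both M4 libraries. Merged exons join all annotated transcripts of a gene, so a gene with long rarely used exons is placed too low on this scale.

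**Figure D1:**
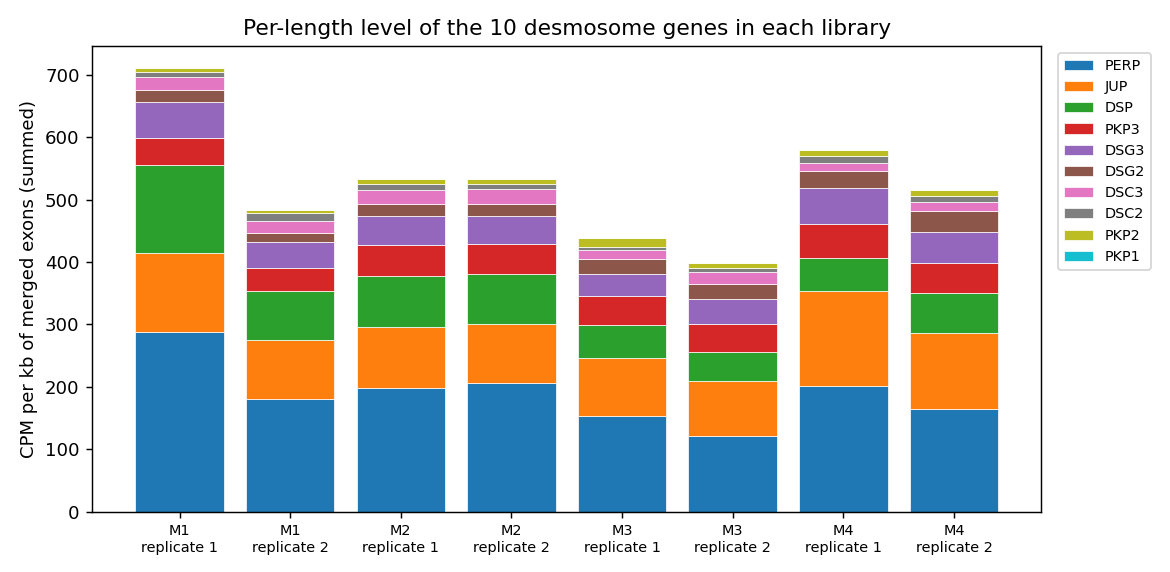
Stacked bars of the level of the 10 desmosome genes in each of the 8 libraries, in CPM per kb of merged exons. The sum was highest in M1 replicate 1 (711) and lowest in M3 replicate 2 (398), and PERP, JUP and DSP made up most of every bar, while PKP1 is too low to see.

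The summed counts of the 10 genes were 0.485% and 0.310% of the library in M1, 0.342% and 0.343% for M2, 0.249% and 0.254% for M3, and 0.364% and 0.338% for M4. Both M3 libraries lay below all others. DSP alone supplied 40.3% and 33.7% of those counts in M1, 32.4% and 31.7% for M2, 26.4% and 25.6% for M3, and 20.7% and 26.9% for M4. M1 and M2 did not overlap M3 and M4 in this share.

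**Figure D2:**
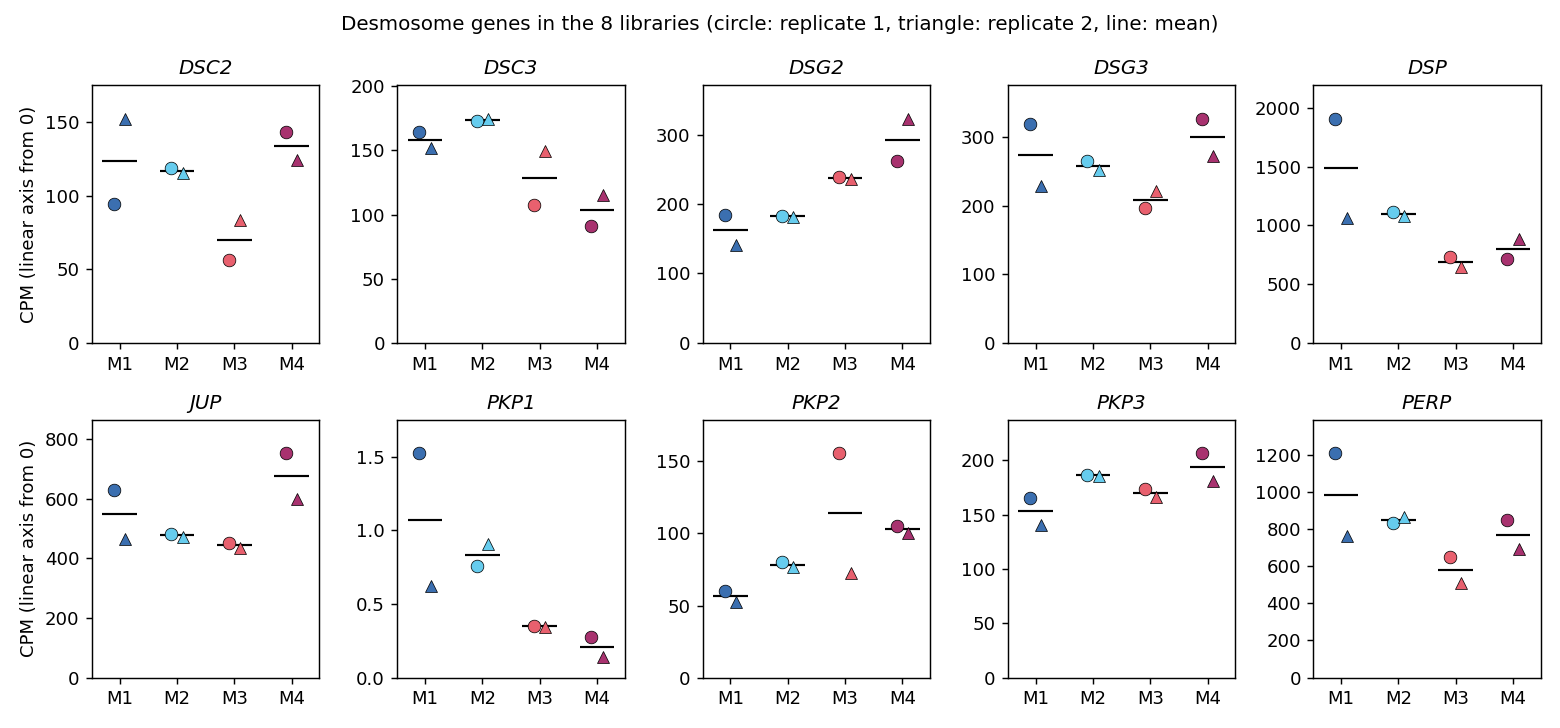
Level of each desmosome gene in CPM, on a linear axis from 0, for the 2 libraries of each line (circle: replicate 1, triangle: replicate 2, horizontal line: mean). DSP and PKP1 were lower in both M3 and both M4 libraries than in any M1 or M2 library, and DSG2 was higher.

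Desmoplakin, DSP (ENSG00000096696), lies on the plus strand of chromosome 6 (GRCh37, chr6:7541571-7586947). It had 1910 and 1066 CPM in M1, 1114 and 1078 for M2, 729 and 645 for M3, and 712 and 886 for M4. M1 replicate 2 sat among the M2 libraries, and all M3 and M4 libraries were below every M1 and M2 library. DSP fell in M3 against M1 by 1.12 on the log2 scale (SE 0.274, a 2.17-fold lower level), with an adjusted p of 0.0260 in edgeR's quasi-likelihood test over all 18431 genes. In M4 against M1 the log2 fold change was -0.90 (SE 0.273, adjusted p = 0.0394, edgeR), which passed the p threshold but not 2-fold. Against M2 it was -0.67 in M3 (adjusted p = 0.195) and -0.46 in M4 (adjusted p = 0.260), neither of which passed (edgeR). DESeq2 also called DSP lower in M3 against M1 (adjusted p = 0.000585). In M4 against M1 DESeq2 gave an adjusted p of 0.00706, under 2-fold. Without M1 replicate 1 the log2 difference from M1 was -0.63 in M3 (adjusted p = 0.0821) and -0.40 in M4 (adjusted p = 0.191), and without M1 replicate 2 it was -1.47 in M3 and -1.26 in M4, both called (edgeR). The adjusted p was also above 0.05 without either M3 library (0.0675 and 0.106), without either M4 library (0.196 and 0.101), with the 2 libraries exchanged (0.120 in M3 and 0.0915 in M4) and in fits of only the 2 lines compared (0.0927 and 0.0926) (edgeR).

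PERP (ENSG00000112378), on the minus strand of chromosome 6 at chr6:138409642-138428556, had 1207 and 760 CPM in M1, 831 and 863 for M2, 647 and 508 for M3, and 846 and 690 for M4. M3 was below all other lines, and M4 overlapped M1. For M3 against M1 the log2 fold change was -0.77 (95% interval -1.34 to -0.19) and missed the threshold, with an adjusted p of 0.0620 (edgeR). Without M1 replicate 1 it was -0.39 (adjusted p = 0.270), and without M1 replicate 2 it was -1.06 and was called (adjusted p = 0.0221, edgeR). DESeq2 gave an adjusted p of 0.0132. JUP (ENSG00000173801), on the minus strand at chr17:39910856-39943183, had 630 and 466 CPM in M1, 483 and 472 for M2, 453 and 436 for M3, and 752 and 599.8 for M4. Plakoglobin RNA was higher in both M4 libraries than in M2 and M3, but M4 overlapped M1 and no JUP comparison passed in edgeR. The nearest was M4 against M3, with a log2 fold change of 0.60 (95% interval 0.16 to 1.05, adjusted p = 0.0683, edgeR). In DESeq2, JUP passed the p threshold in M4 against M3 (adjusted p = 0.0143) and against M2 (adjusted p = 0.0412), both under 2-fold.

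The desmosomal cadherins share a cluster on chromosome 18 (GRCh37, chr18:28569331-29128971, 560 kb), with the desmocollins on the minus strand and the desmogleins on the plus strand. DSG2 (ENSG00000046604, chr18:29078140-29128971), the desmoglein of simple epithelia, had 184 and 141 CPM in M1, 183 and 182 for M2, 239 and 236 for M3, and 262 and 323 for M4. Both M4 libraries were above every other library, and both M3 libraries were above M1 and M2. DSG2 was 1.80-fold higher in M4 than in M1 (log2 fold change 0.85, SE 0.173, adjusted p = 0.00916, edgeR) and 1.60-fold higher than in M2 (log2 0.68, SE 0.173, adjusted p = 0.0277). The M3 difference from M1 was 0.55 with an adjusted p of 0.0582 (edgeR). With the 2 libraries exchanged, the adjusted p of M4 against M1 was 0.0768, and without M4 replicate 2 it was 0.0584, while without M1 replicate 1 the log2 fold change was 1.07 and was called (edgeR).

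DSC3 (ENSG00000134762, chr18:28569331-28622781), a desmocollin of basal cells at the opposite end of the cluster, had 164 and 152 CPM in M1, 173 and 175 for M2, 108 and 149.8 for M3, and 91.4 and 115 for M4. M4 lay below M1 and M2, and the M3 replicates spanned the gap. DSC3 was 1.53-fold lower in M4 than in M1 (log2 fold change -0.61, SE 0.191, adjusted p = 0.0428, edgeR) and 1.68-fold lower than in M2 (log2 -0.75, SE 0.191, adjusted p = 0.0282). The difference from M1 was lost with DESeq2's type of size factors in the same test (adjusted p = 0.0503), with the 2 libraries exchanged (0.0872), in the fit of only the 2 lines compared (0.0550), and without any single M1 library (0.145 and 0.0874) or M4 library (0.218 and 0.0781) (edgeR). Against M2, DSC3 (adjusted p from 0.0637 to 0.162) and DSG2 (from 0.0512 to 0.180) passed in no fit that left out an M2 or M4 library, and DSC3 did not pass with the 2 libraries exchanged (adjusted p = 0.0934, edgeR).

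DSC2 (ENSG00000134755, chr18:28638806-28682485) had 94.3 and 152 CPM in M1, 119 and 115 for M2, 56.6 and 83.2 for M3, and 143 and 124 for M4. Both M3 libraries were below all others. DSC2 was 1.91-fold higher in M4 than in M3 (log2 fold change 0.93, SE 0.259, adjusted p = 0.0460, edgeR), while M3 against M1 missed (log2 -0.82, adjusted p = 0.0585). In DESeq2 the adjusted p of M3 against M1 was 0.0186. Without M1 replicate 1 that difference was -1.12 and was called (adjusted p = 0.0269), and without M1 replicate 2 it was -0.43 (adjusted p = 0.260, edgeR). Without M3 replicate 1 the adjusted p of M4 against M3 was 0.186, without M4 replicate 1 it was 0.192, without M4 replicate 2 it was 0.110, without M3 replicate 2 the log2 fold change was 1.24 and was called, and with the 2 libraries exchanged it was 0.0793 (edgeR). DSG3 (ENSG00000134757, chr18:29027704-29058665), the desmoglein of basal keratinocytes, had 319.5 and 229 CPM in M1, 265 and 252 for M2, 196 and 221 for M3, and 327 and 272 for M4. It was lowest in M3, as DSC2 was, and no DSG3 comparison passed in edgeR. In M4 against M3 its log2 fold change was 0.52 (95% interval 0.08 to 0.96, adjusted p = 0.0988, edgeR), and DESeq2 gave an adjusted p of 0.0488.

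Plakophilin genes were unevenly used. PKP1 (ENSG00000081277, chr1:201252580-201302121, plus strand), the plakophilin of suprabasal stratified epithelium, had 126 and 51 counts in M1, 77 and 64 for M2, 28 and 30 for M3, and 31 and 11 for M4. On the CPM scale that was 1.52 and 0.622 in M1, 0.756 and 0.910 for M2, 0.354 and 0.344 for M3, and 0.273 and 0.141 for M4. The M3 and M4 libraries were below all M1 and M2 libraries, at a level where counting error is large. PKP1 fell in M4 against M1 (log2 fold change -2.35, SE 0.586, 95% interval -3.71 to -0.99, adjusted p = 0.0198, edgeR) and against M2 (log2 -1.98, SE 0.582, adjusted p = 0.0453). Without M1 replicate 1 the difference from M1 was -1.55 with an adjusted p of 0.0969, without M4 replicate 2 it was -1.95 (adjusted p = 0.115), and with the 2 libraries exchanged the adjusted p against M2 was 0.0851 (edgeR). In M3 against M1 its log2 fold change was -1.62 (adjusted p = 0.0799), and without M1 replicate 2 it was -2.12 and was called (adjusted p = 0.0407, edgeR). The difference of M4 from M2 passed in no fit that left out an M2 or M4 library, with adjusted p from 0.0900 to 0.196 (edgeR).

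PKP2 (ENSG00000057294, chr12:32943679-33049732, minus strand), the plakophilin of simple epithelium and heart, had 60.2 and 52.5 CPM in M1, 79.9 and 76.4 for M2, 156 and 72.5 for M3, and 105.0 and 101 for M4. Both M2, both M3 and both M4 libraries were above M1, but the M3 replicates were far apart. In M3 against M1 its log2 fold change was 1.02 (SE 0.307), which exceeded 2-fold and missed the p threshold with an adjusted p of 0.0515 (edgeR); DESeq2 gave an adjusted p of 0.00984. The M3 libraries decided the size: without replicate 1 it was 0.37 (adjusted p = 0.115), and without replicate 2 it was 1.47 and was called (adjusted p = 0.00302, edgeR). For M4 the value was 0.87 (95% interval 0.16 to 1.58, adjusted p = 0.0650, edgeR). PKP3 (ENSG00000184363, chr11:392614-404908, plus strand), found in most desmosomes, had 166 and 140.5 CPM in M1, 187 and 186 for M2, 173 and 167 for M3, and 207 and 181 for M4. It varied least, with a line mean 1.27-fold higher in M4 than in M1, and no PKP3 comparison passed in edgeR or DESeq2.

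**Figure D3:**
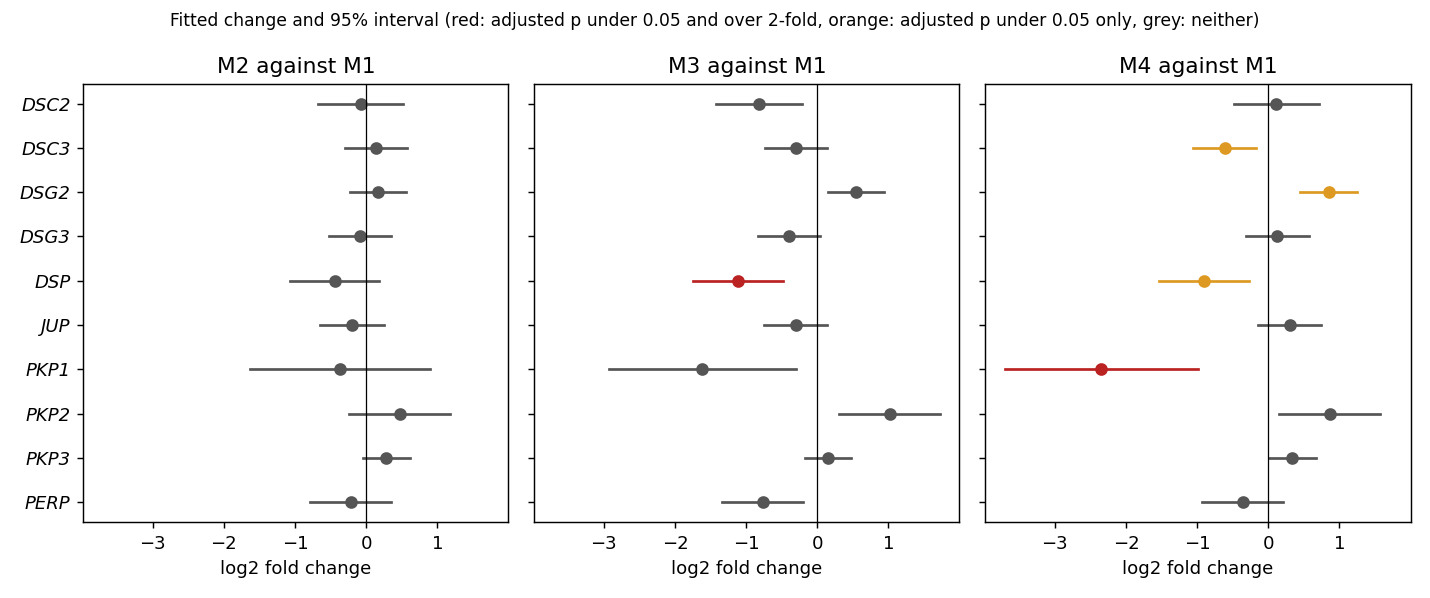
Fitted log2 fold change of each desmosome gene in M2, M3 and M4 against M1, with 95% intervals (red: adjusted p under 0.05 and over 2-fold; orange: adjusted p under 0.05 only; grey: neither). No gene is coloured in M2, DSP is red in M3, and in M4 PKP1 is red while DSC3, DSP and DSG2 are orange.

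Counted over the 10 genes, none was called in M2 against M1 at an adjusted p under 0.05 and over 2-fold in edgeR, where 3.37% of all genes tested were called. None passed there by the p threshold alone (4.83% of all genes), none had an unadjusted p under 0.05, and DESeq2 called 0 as well. In M3 against M1, 1 of 10 was called (DSP, lower) beside 13.5% of all genes, and the same gene alone passed the p threshold, beside 21.3%. In M4 against M1, 1 of 10 was called (PKP1, lower) beside 20.7%, and 4 passed the p threshold (DSG2 higher; DSC3, DSP and PKP1 lower) beside 31.4%. Neither share of called members exceeded the background in these comparisons by the 2-fold rule. An unadjusted p under 0.05 was found for 6 of the 10 in M3 against M1 and for 6 in M4 against M1 (edgeR). No share of all genes is given for the unadjusted p, here or below. That share cannot be below the 21.3% and 31.4% that passed the adjusted p. Counts by the unadjusted p therefore do not set the 10 genes apart. All comparisons with M1 share the same M1 libraries.

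In M3 against M2, edgeR and DESeq2 each called 0 of 10 by the 2-fold rule, and 0 passed the p threshold in edgeR, beside backgrounds of 4.15% and 5.55%; 2 of the 10 (DSC2 and DSP) had an unadjusted p under 0.05. In M4 against M2, 1 of 10 was called (PKP1, lower) beside 13.9%. The p threshold was passed by 3 (DSG2 higher, and DSC3 and PKP1 lower) beside 22.2%, and 4 had an unadjusted p under 0.05 (edgeR). In M4 against M3, edgeR and DESeq2 each called 0 by the 2-fold rule beside 10.3%, 3 had an unadjusted p under 0.05, and DSC2 alone passed the p threshold beside 16.8%.

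The ranges of the libraries gave another view. All 10 genes had M3 libraries that did not overlap the M1 libraries (7 lower, 3 higher), beside 59.4% of all genes tested, and 9 of 10 did not overlap between M3 and M2 (8 lower, DSG2 higher), beside 59.0%. The number was 3 of 10 in M2 against M1, beside 61.0%. It was 6 in M4 against M1 beside 67.3%, 8 in M4 against M2 beside 73.0%, and 7 in M4 against M3 (6 higher, PKP1 lower) beside 60.2%. The median log2 fold change of the 10 genes was -0.35 in M3 against M1 and -0.37 in M3 against M2, while the medians over all genes tested were -0.02 and 0.00. In M4 against M3 it was 0.26, with -0.02 over all genes. For M4 against M1 the median was 0.12, with -0.02 over all genes, so higher and lower members nearly balanced there.

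The relative use of paralogs within a library does not depend on scaling between libraries. DSC3 made up 73.9% and 61.8% of the per-length level of DSC2 and DSC3 in M1, 70.3% and 71.1% for M2, 75.5% and 74.5% for M3, and 50.9% and 60.2% for M4. M4 was below all other lines, and M3 was not below M1. In M3 against M1 the log2 fold change was -0.82 for DSC2 and -0.30 for DSC3, and neither passed (edgeR). DSG3 made up 74.7% and 73.4% of DSG2 and DSG3 in M1, 71.1% and 70.2% for M2, 58.3% and 61.4% for M3, and 68.0% and 58.9% for M4. M3 and M4 were both below M1 and M2 in this share. The basal isoforms were the larger part of both pairs in all 8 libraries on this scale, while in counts not divided by length the mean share was below 50% for DSC3 in M4 (43.6%) and for DSG3 in M3 (46.7%). PKP2 made up 11.8% and 12.1% of the 3 plakophilins in M1, 13.6% and 13.1% for M2, 24.8% and 13.8% for M3, and 15.8% and 17.0% for M4, with PKP3 nearly all of the rest. PKP1 was under 1% in every library, at 0.492% and 0.237% in M1 and 0.0680% and 0.0394% in M4. With 2 libraries against 2, an exact permutation test cannot go below p = 0.333, so these shares are given without a test.

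**Figure D4:**
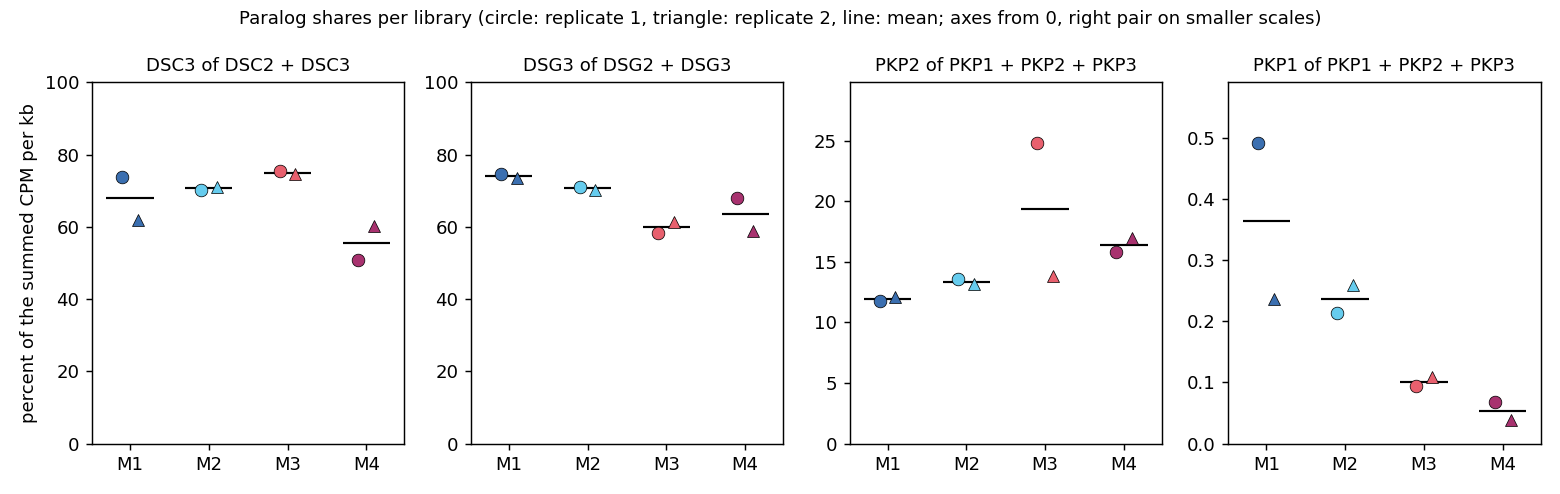
Share of DSC3 in the desmocollins, DSG3 in the desmogleins, and PKP2 and PKP1 in the plakophilins, as percent of the summed CPM per kb in each library (circle: replicate 1, triangle: replicate 2, line: mean). The DSC3 share was lowest in M4 (50.9% and 60.2%), and the DSG3 share was lower in M3 and M4 than in M1 and M2.

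For the 4 genes that passed a threshold against M1, the 250 bases before the RefSeq start site are shown as context for these differences (GRCh38.p14, each read 5′ to 3′ on the gene's strand). A RefSeq promoter was found for 8 of the 10 genes, not for PKP2 and PKP3. Capitals mark matches on either strand to the CAGGTG E-box (bound by SNAI and ZEB repressors), the GC box GGGCGG, the AP-2 motif GCCNNNGGC, the AP-1 motif TGANTCA, the GRHL motif AACCGGTT and TATAAA, and GC boxes that overlap run together.
DSP, chr6:7541421-7541670, plus strand: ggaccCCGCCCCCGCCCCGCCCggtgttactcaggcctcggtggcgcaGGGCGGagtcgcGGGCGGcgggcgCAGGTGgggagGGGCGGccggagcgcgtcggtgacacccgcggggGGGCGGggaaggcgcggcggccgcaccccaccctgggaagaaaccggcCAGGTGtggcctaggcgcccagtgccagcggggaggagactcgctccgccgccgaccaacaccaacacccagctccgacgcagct
DSG2, chr18:31497927-31498176, plus strand: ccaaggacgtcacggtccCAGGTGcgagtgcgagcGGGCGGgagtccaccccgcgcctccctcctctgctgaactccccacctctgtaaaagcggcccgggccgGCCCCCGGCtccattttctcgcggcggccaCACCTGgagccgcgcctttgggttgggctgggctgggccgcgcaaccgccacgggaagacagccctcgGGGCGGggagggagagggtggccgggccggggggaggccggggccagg
DSC3, chr18:31042743-31042992, minus strand: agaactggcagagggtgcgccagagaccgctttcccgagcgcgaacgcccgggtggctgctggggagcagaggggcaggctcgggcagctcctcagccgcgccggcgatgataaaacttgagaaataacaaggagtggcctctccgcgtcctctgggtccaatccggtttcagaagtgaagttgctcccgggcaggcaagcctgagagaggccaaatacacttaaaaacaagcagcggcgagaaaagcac
PKP1, chr1:201283256-201283505, plus strand: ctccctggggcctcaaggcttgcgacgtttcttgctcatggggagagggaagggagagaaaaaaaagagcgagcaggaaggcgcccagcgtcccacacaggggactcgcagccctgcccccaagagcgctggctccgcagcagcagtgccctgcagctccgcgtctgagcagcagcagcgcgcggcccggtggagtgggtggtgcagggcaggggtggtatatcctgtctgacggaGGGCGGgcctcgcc

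The DSP stretch held 2 CAGGTG matches and 7 GC boxes, and the DSG2 stretch held 2 CAGGTG matches, 2 GC boxes and 1 AP-2 match. PKP1 held 1 GC box and DSC3 none of the letters searched. Among 34788 promoters of the same length, 17.5% held CAGGTG, 42.6% GGGCGG, 19.8% GCCNNNGGC, 6.59% TGANTCA, 0.115% AACCGGTT and 10.8% TATAAA. The GC content was 78% for DSP, 75.2% for DSG2, 67.6% for PKP1 and 60.4% for DSC3, with a median of 58% over all promoters. CAGGTG was present before DSP, which was lower in M3 and M4, and before DSG2, which was higher in M4. A match is a description of the letters and not a bound site.

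The other desmosomal cadherins and associated proteins were read from a list of 9 genes (DSC1, DSG1, DSG4, PKP4, CDSN, PPL, EVPL, KAZN and PNN), 8 of them tested. DSG1, the desmoglein of differentiating layers and a member of the same cluster, had 313 and 158 counts in M1, 28 and 20 for M2, 0 and 0 for M3, and 5 and 3 for M4. Every library of M2, M3 and M4 was below M1. It was called lower in M2 against M1 (log2 fold change -3.35, adjusted p = 0.0189, edgeR), in M3 (adjusted p = 0.00102) and in M4 (adjusted p = 0.000951). A count of 0 in M3 allows up to 0.0342 and 0.0347 CPM before scaling, so no fold is given there, and DSG1 was also called in M3 against M2 (lower), M4 against M2 (lower) and M4 against M3 (higher), all at these few counts. With the 2 libraries exchanged no DSG1 comparison passed, with adjusted p from 0.0768 in M4 against M1 to 1 in M2 against M1 (edgeR). The call in M2 was also lost without M1 replicate 1 (0.0642) or either M2 library (0.190 and 0.188), whereas those of M3 and M4 against M1 held without any single library of the lines compared. The call in M3 against M2 was lost without either M2 library (0.0694 and 0.0670), and those in M4 against M2 and M3 without any single library of the lines compared (adjusted p from 0.0929 to 0.134, edgeR). DSC1 had at most 13 counts in a library and was not tested, and CDSN and DSG4 stayed below 1 CPM. KAZN, which binds periplakin, was called higher in M3 against M2, but not with the 2 libraries exchanged (adjusted p = 0.279) or without either M2 library (0.113 and 0.100, edgeR). The plakins PPL and EVPL, relatives of DSP, were not called in any comparison, with PPL at 195 and 108 CPM in M1 and 215 and 161 in M4.

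Of the 8 protein-coding genes within 1000 kb of the cluster, 5 were tested. B4GALT6 was called higher in M3 (log2 fold change 1.63, adjusted p = 0.0199) and M4 (log2 2.14, adjusted p = 0.00506) against M1 (edgeR), and the others were not called in any comparison. With the 2 libraries exchanged B4GALT6 was not called in M3 (adjusted p = 0.428) or M4 (0.146), and the M3 call was lost without M1 replicate 2 (0.0754) or M3 replicate 2 (0.0895, edgeR). In M4 against M1 their log2 fold changes ran from -0.58 to 2.14 with a median of 0.23, while within the cluster DSC3 was lower, DSG2 higher, and DSC2 and DSG3 overlapped M1.

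Keratins, the filaments that desmosomes anchor, were all tested (11 genes). In M4 against M1, 4 were called higher and 3 lower, beside 20.7% of all genes tested in either direction (edgeR). KRT6B rose (log2 fold change 3.19, adjusted p = 0.000341, edgeR), as did KRT18 (2.00, adjusted p = 0.000869), KRT7 (1.52, adjusted p = 0.0174) and KRT8 (1.27, adjusted p = 0.00796). KRT8 and KRT18 are the keratin pair of simple epithelia. KRT19, another simple-epithelial keratin, had a log2 fold change of -1.77 (adjusted p = 0.0526, edgeR) and was called lower by DESeq2. It was low throughout, at 3.72 and 1.73 CPM in M1 and 0.855 and 0.743 in M4. The basal keratins KRT5 (-1.26, adjusted p = 0.00665), KRT14 (-2.37, adjusted p = 0.00204) and KRT15 (adjusted p = 0.0182, just past 2-fold) fell (edgeR), while KRT17, also of basal cells, had a log2 fold change of 0.96 (adjusted p = 0.0309). In M3 against M1, KRT6B, KRT14, KRT17 and KRT18 were called higher and KRT15 lower, beside 13.5% of all genes tested. KRT14 thus moved in opposite directions in M3 and M4. In M2 against M1, KRT6B, KRT14 and KRT17 were called higher, beside 3.37% of all genes tested. With the 2 libraries exchanged, KRT5, KRT7, KRT14 and KRT18 kept their calls in M4, while KRT6B (adjusted p = 0.0802), KRT8 (0.0772) and KRT15 (0.205) lost them, and no keratin call in M3 or M2 against M1 remained (adjusted p from 0.135 to 1, edgeR). Over all genes tested, 1.19% were called in M3 against M1 and 0 in M2 against M1 with that exchange (edgeR). KRT14 was then -0.30 in M2 on the log2 scale, the opposite direction. Without 1 library, the M4 call was lost for KRT7 (without M1 replicate 2 or M4 replicate 1), KRT8 (M4 replicate 1, where it was 0.85), KRT5 (M4 replicate 2, adjusted p = 0.0611) and KRT15 (each but M1 replicate 2). The M2 calls were all lost without either M2 library, as were nearly all calls over all genes in that comparison (edgeR). The log2 fold changes of the 3 keratins then stayed from 1.49 to 1.66. KRT17 also lost its M2 call without M1 replicate 1, where it was 1.26 (edgeR). In M4 against M3, KRT14 (log2 fold change -5.24) and KRT5 (-1.02) were called lower, beside 10.3% of all genes tested (edgeR). In M4 against M2, KRT14 and KRT5 were called lower and KRT7, KRT18 and KRT6B higher, beside 13.9% (edgeR). In M3 against M2, KRT6B and KRT14 were called higher, beside 4.15% (edgeR). With the 2 libraries exchanged, KRT5 lost its M4 call against M3 (adjusted p = 0.0994) and KRT6B that against M2 (0.0894, edgeR). Both calls in M3 against M2 were then lost too (edgeR). KRT5 had 8414 and 6203 CPM in M1 and 3268 and 2837 in M4, whereas KRT14 stayed below 100 CPM in all libraries. KRT6A, KRT6B, KRT14, KRT16 and KRT17 have near-identical copies that can share reads, so their values are uncertain.

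The 10 adherens junction genes (CDH1, CDH3, CTNNB1, CTNNA1, CTNND1, VCL, AFDN, NECTIN1, NECTIN2 and NECTIN4) were all tested. In both M2 and M4 against M1, edgeR and DESeq2 called 0 of them by the 2-fold rule. In edgeR, 2 and 3 had an unadjusted p under 0.05, and 1 and 2 passed the p threshold alone. Over all genes tested, the 2-fold rule called 3.37% in M2 and 20.7% in M4 in edgeR, and 6.93% and 22.5% in DESeq2. The p threshold alone was passed by 4.83% and 31.4% (edgeR). NECTIN4, a nectin that binds cells to each other, was called lower in M3 against M1 (log2 fold change -1.44, adjusted p = 0.00405, edgeR) and higher in M4 against M2 and M3. With the 2 libraries exchanged the adjusted p was 0.205, 0.170 and 0.0533 in these 3 comparisons, and M4 against M2 was lost without M2 replicate 2 (0.0576, edgeR). E-cadherin, CDH1, had 185 and 220 CPM in M1, 159 and 156 for M2, 126 and 148 for M3, and 222 and 211 for M4. Like DSC2, DSG3, DSP, JUP and PERP, CDH1 had its lowest line mean in M3.

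Of 20 transcription factors known to act on epithelial junction genes, 4 were called lower in M3 against M1 (CEBPA, EHF, GRHL2 and TFAP2A). In M2 against M1, edgeR called 0, with 4 at an unadjusted p under 0.05, and DESeq2 called 2 (OVOL2 and TFAP2C). M4 against M1 had 2 called higher (SNAI1 and KLF4) and 5 lower (ZEB2, CEBPA, EHF, TFAP2C and TP63). Over all genes tested, edgeR called 13.5% in M3, 3.37% in M2 and 20.7% in M4 against M1, and DESeq2 called 6.93% in M2. TP63, the p53 relative of basal epithelial cells, had 89.6 and 109 CPM in M1, 105 and 105 for M2, 61.4 and 80.2 for M3, and 36.2 and 39.8 for M4. It fell in M4 against M1 (log2 fold change -1.38, adjusted p = 0.00133, edgeR). Of these calls, TFAP2A in M3 and TP63 and ZEB2 in M4 held with the 2 libraries exchanged, and the others did not (adjusted p from 0.0520 to 0.204, edgeR). TFAP2A and EHF in M3 and TP63 and EHF in M4 held without any single library of the lines compared. SNAI1, a repressor that binds E-boxes, was low throughout, at 1.08 and 0.708 CPM in M1 and 2.44 and 6.03 in M4. SNAI2, also a SNAI repressor, went the other way, at 58.3 and 68.0 CPM in M1 and 31.05 and 41.6 in M4. Its M4 against M1 log2 fold change was -0.80 (adjusted p = 0.0150, edgeR), under 2-fold. In M4 against M3, OVOL1, GRHL3, SNAI1 and KLF4 were called higher and TFAP2C and SNAI2 lower, beside 10.3% of all genes tested (edgeR). With the 2 libraries exchanged, SNAI1 (adjusted p = 0.0652) and TFAP2C (0.158) lost that call (edgeR). Of 9 enzymes that modify or shed desmosomal proteins, GSK3B, a kinase that acts on the DSP tail, was called higher in M4 against M1 (log2 fold change 1.60, adjusted p = 0.000882, edgeR), with 53.7 and 48.1 CPM in M1 and 142 and 167 in M4. PRMT1, which methylates the DSP tail, was lower in M4 against M2 (log2 -1.09, adjusted p = 0.00271, edgeR). PRKCA, a protein kinase C, was called lower in M4 against M3, but not with the 2 libraries exchanged (adjusted p = 0.0660, edgeR) or without M3 replicate 2 (0.0652) or M4 replicate 1 (0.0705). PRMT1 was just under 2-fold without M4 replicate 1 (-0.99), while the GSK3B call held with the 2 libraries exchanged and without any single M1 or M4 library. The genes ADAM9, ADAM10 and ADAM17, the proteases that shed cadherins, were not called by the 2-fold rule in any comparison. By the adjusted p alone, ADAM9 was higher in M4 against M1 (log2 fold change 0.90, adjusted p = 0.00752, edgeR), beside 31.4% of all genes. ADAM10 was lower in M4 against M3 (-0.54, adjusted p = 0.0397, edgeR), beside 16.8%.

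For DSP and PKP1, whose highest line mean was at least 2 times the lowest, the genes most alike over the 8 libraries were taken from 12742 candidates by Pearson's r of log2 CPM. These were GID8 (r = 0.993) and CS (r = 0.984) for DSP, and MED25 (r = 0.988) and CARD8-AS1 (r = 0.985) for PKP1. The points share 4 lines, and the highest of 12742 values is given, so r describes the order only.

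**Figure D5:**
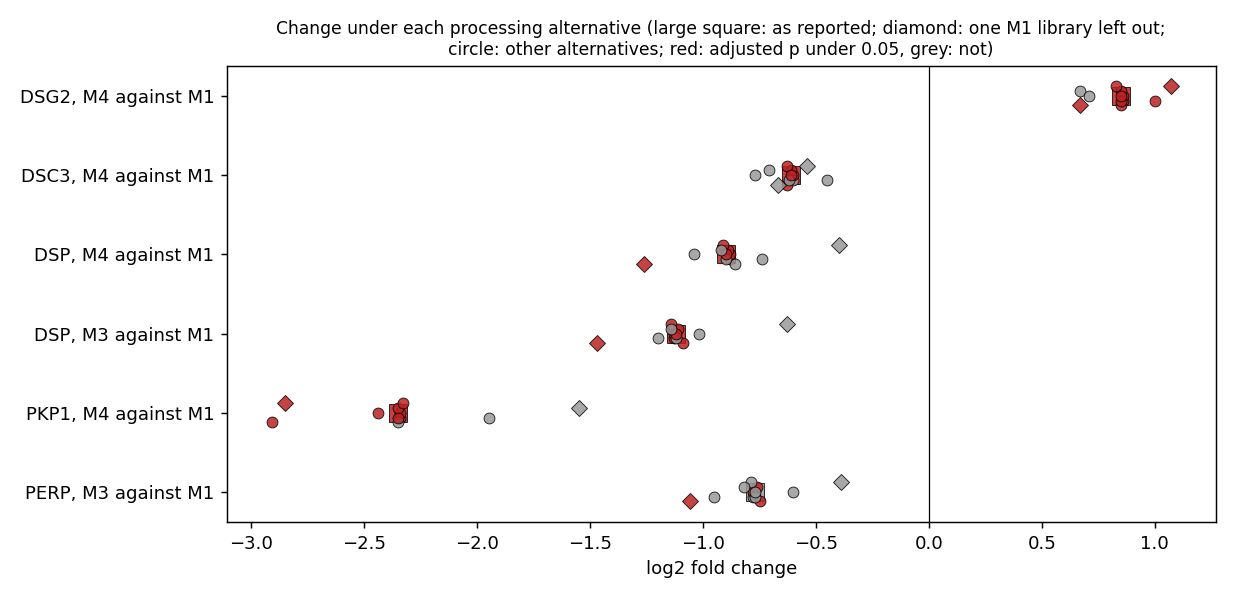
Log2 fold change against M1 of DSG2, DSC3, DSP and PKP1 in M4 and of DSP and PERP in M3 under each processing alternative (large square: as reported; diamond: an M1 library left out; circle: other alternatives; red: adjusted p under 0.05). In the comparisons plotted no value crossed 0, while DSP ranged from -1.47 to -0.63 in M3 and from -1.26 to -0.40 in M4 depending on which M1 library was kept.

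Reads shared with overlapping genes that have counts in the table bear on 3 of the 10 genes. DSC2 shares 554 bp of exon with RP11-408H20.1 on the same strand (20 to 184 counts), DSG2 shares 186 bp with the antisense DSG2-AS1 (0 to 14 counts), and DSP shares 81 bp with the antisense DSP-AS1 (32 to 115 counts). These counts are small beside those of the 3 coding genes, the lowest of which was 4477 for DSC2. PKP2 shares 424 bp of exon on the same strand with ENSG00000274976, a lncRNA absent from the count table. Reads from that lncRNA cannot be told apart from PKP2, and all 8 PKP2 values are not whole.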

How the data were processed

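The authors trimmed poly A+ paired-end reads with Trimmomatic, aligned them to hg19 (GRCh37) with STAR and counted genes with RSEM on GENCODE v19. The submitters' notes also name Picard. Tool versions, and whether counting used the strand, are not given in the sources used here. The table that the authors deposited holds RSEM expected counts with no normalization, and 12.8% of its values are not whole. They were rounded and tested in R 4.3.3 by the quasi-likelihood test of edgeR 4.0.16, with TMM scaling, filterByExpr and robust estimation in 1 model of the 4 lines over 8 libraries and Benjamini-Hochberg adjustment over 18431 genes. A call needs an adjusted p under 0.05 and an absolute log2 fold change above 1. The second rule uses the adjusted p alone. SEs follow from the F statistic. Intervals of 95% use the moderated degrees of freedom. DESeq2 1.42.0 was an alternative. The fit was tested on simulated data.

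Symbols came from a gene name table (94.4% of IDs matched), coordinates and exon lengths from GENCODE release 44 on GRCh37, and promoters from RefSeq. Groups came from the sample labels. The replicates are labelled biological, with nothing said of separate thaws or days, so p-values measure the spread between these libraries. The members, lists and tests were chosen with earlier results of these data known. The named genes are the 10 members, up to 4 called genes per list and comparison, and for members with a 2-fold range of line means the 2 most alike genes (for PKP2 this result is not reported here). Further list genes were named after their values were seen. Of the other lists, 2 hormone receptors (ESR1 and PGR) summed to at most 4.01 CPM, and the endothelial markers CDH5 and VWF to at most 0.326 CPM.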

Additional observations from a re-analysis of the deposited data

How the results depend on the processing

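Of 714 single values of the 10 genes under the alternatives, 663 kept their direction and side of the threshold, 13 lost a call, 15 gained it and 23 changed sign. None of the 23 was a call. Most values that kept their side were not called in either fit, so 663 does not measure how well the calls held. The 13 losses all fell on the calls of the reported fit. DSP in M3 against M1 lost its call in 5 of 12 alternatives. PKP1 lost it in 3 of 11 in M4 against M1 and in 5 of 11 in M4 against M2. Replicate numbers did not pair the libraries: correlations of same-numbered deviations ran from -0.05 to 0.19. With the replicate block the counts of called genes were 1 in M3 against M1, 1 in M4 against M1 and 1 in M4 against M2, as without it. Under the block DSP in M4 against M1 had an adjusted p of 0.0537 (edgeR), so it no longer passed the p threshold. In M3 against M1, PKP2 (log2 fold change 0.96, adjusted p = 0.0433) and PERP (-0.75, adjusted p = 0.0446) passed it under the block (edgeR).

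By the adjusted p alone, 1 gene was higher and 3 lower in M4 against M1, 1 higher and 2 lower in M4 against M2, and 1 higher in M4 against M3. DESeq2 and the fit with no filter each called 1 gene higher (PKP2) in M3 against M1. A filter of 1 CPM in 2 libraries removes PKP1, so 0 genes were called lower in M4 against M1 and against M2. The fit of only the 2 lines compared called 0 lower in M3 against M1 and 0 in M4 against M1, and exchanging M1 replicate 2 and M2 replicate 1 called 0 lower in M3 against M1 and 0 in M4 against M2. In fits that leave out 1 library, the lone sample left is assumed to vary like the other lines. Such fits gave 0 to 1 genes higher and 0 to 3 lower in M3 against M1, 0 to 1 higher and 0 to 2 lower in M4 against M1, 0 lower in M4 against M2 in each of its 4 fits, and 0 to 1 higher in M4 against M3. The cause of these changes was not tested, apart from the smaller number of libraries.

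Sign changes of log2 fold changes were as follows. With the 2 libraries exchanged, M2 against M1 gave 0.33 for DSC2, -0.05 for DSC3, -0.18 for DSG2, -0.12 for PKP2 and -0.11 for PKP3. PKP3 gave -0.05 in M3 against M1 and 0.06 in M3 against M2, and DSC2 gave -0.00 in M4 against M2. Leaving out 1 library, M2 against M1 ranged from -0.38 to 0.31 for DSC2, -0.01 to 0.37 for DSG2, -0.30 to 0.17 for DSG3, -0.80 to 0.04 for DSP, -0.40 to 0.03 for JUP, -0.87 to 0.42 for PKP1 and -0.51 to 0.15 for PERP. M4 against M1 ranged from -0.17 to 0.50 for DSC2, -0.09 to 0.41 for DSG3 and -0.65 to 0.03 for PERP. M4 against M2 ranged from -0.04 to 0.17 for PKP3 and -0.29 to 0.02 for PERP. PKP2 ranged from -0.11 to 0.99 in M3 against M2 and -0.60 to 0.50 in M4 against M3.

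Shares of counts not divided by length were, in M1, M2, M3 and M4, 56.7%, 59.8%, 64.9% and 43.6% for DSC3, and 62.7%, 58.6%, 46.7% and 50.6% for DSG3, so DSC2 in M4 and DSG2 in M3 are then the larger part. PKP1 was 0.314% in M2 and 0.126% in M3. Scaling by DESeq2's type of size factors moved the median of all genes by at most 0.024 (log2). Depth limits PKP1, with 11 to 126 counts.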
